A study of Mus musculus with 8 samples.

Results

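The genes described here code for the proteasome, the machine that breaks down most short-lived and damaged proteins in a cell. They were taken from testis expression arrays of house mice by name alone: every probe set whose single annotated gene symbol begins with Psma, Psmb, Psmc, Psmd, Psme or Psmf, without the immunoproteasome genes Psmb8, Psmb9 and Psmb10. A probe set is a handful of short probes that jointly read 1 transcript, and this rule took 50 of the 12422 probe sets on the array, from 39 genes. Of these genes, 37 code for subunits, activators or dedicated chaperones of the proteasome. The other 2 genes, Psmc3ip and Psme3ip1, carry the prefix because their proteins bind a proteasome protein, and they are not subunits. In all, 48 of the 50 probe sets, with at least 1 for each of the 39 genes, were bright enough to be tested. The genes Psma8, Psmb11 and Psmf1 were not analysed here.

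Total RNA from testis of Mus musculus was hybridised to Affymetrix arrays, 2 technical replicate arrays for each of 4 groups, which the labels name castaneus, domesticus, musculus and ssp. The labels write these names after Mus musculus, and castaneus, domesticus and musculus are names of mouse subspecies. Beyond these names the labels give no genotype, age or treatment and no number of animals. They do not say what ssp stands for. Because the arrays of a group are technical replicates, every p-value below measures only the spread between such arrays, so a call holds for these RNA samples and not for the mice they came from. In RNA from a whole tissue, fewer cells of a type and less RNA per cell cannot be told apart. Probe sequences were not given, so whether base differences between the groups under the probes altered any intensity was not tested.

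The proteasome has a barrel-shaped core particle, the 20S particle, built from stacked rings of alpha and beta subunits, with the cutting sites on the inner face of the beta rings. A regulatory particle, the 19S particle, caps the barrel, holds proteins tagged with ubiquitin and unfolds them with a ring of ATPases. Testis is known for proteasome forms of its own, and the activator Psme4 is known there for its part in the breakdown of acetylated core histones when the chromatin of spermatids is repacked.

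The values are linear intensities as deposited, with nearly the same mean on all 8 arrays (496 to 497 after trimming 2% at each end). Intensities of different probe sets give no order of abundance, because probes bind their targets unequally. Of the testis markers, 8 of 10 spermatid and 6 of 7 spermatocyte probe sets passed the brightness filter. The spermatid gene Prm1 lay between 43402 and 83529 and the spermatocyte gene Ldhc between 29093 and 44573 over the 8 arrays, while the Prm2 probe sets did not pass 429 and that of Sycp3 did not pass 102.3. Of the 2 epididymis probe sets, 1 passed it. Differences were tested with limma's moderated tests on log2 intensity over all 8874 probe sets that passed a brightness filter, with Benjamini-Hochberg adjustment. A probe set was called if its adjusted p was under 0.05 and the group means lay at least 1 apart on the log2 scale, which is a 2-fold difference.

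Of the 39 genes, Psma3 and Psme1 passed a test between groups, Psma3 with its highest level in domesticus and Psme1 with its lowest in ssp. In limma's F test over the 4 groups, 1 of the 48 tested proteasome probe sets was called, which is 2.08%, beside 1.76% of all tested probe sets. That probe set belongs to Psma3. The highest and lowest group mean of a proteasome probe set lay a median of 0.56 apart on the log2 scale, or 1.47-fold, against 0.81 or 1.75-fold over all tested probe sets. The distance was 2-fold or more in 11 of the 48, or 22.9%, against 38.7% of all. Replicate arrays of proteasome probe sets were also close, with 45 of 48 within 2-fold in both castaneus and domesticus, 44 in musculus and 46 in ssp. Over all tested probe sets between 77.5% and 84.3% lay within 2-fold. The heat map of all tested proteasome probe sets shows the 2 arrays of each group side by side.

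**Figure D1:**
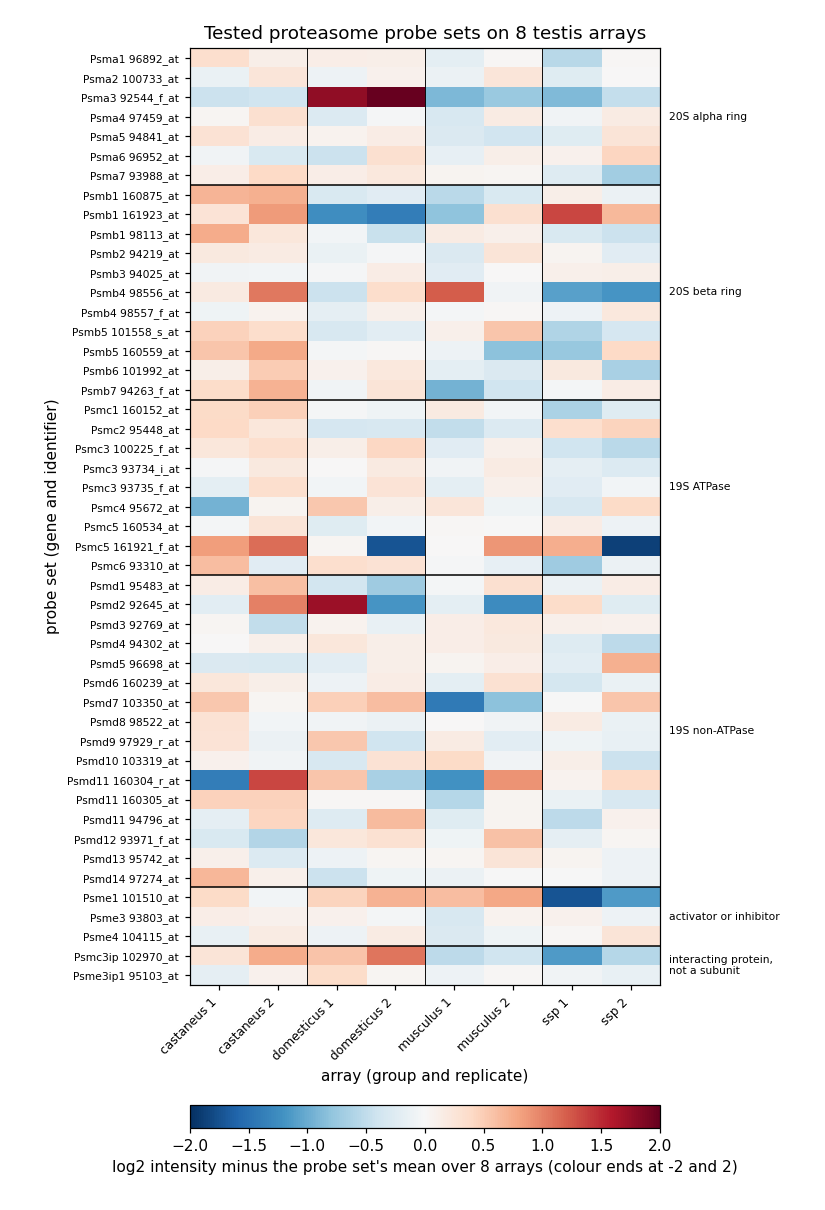
Log2 intensity of the 48 tested proteasome probe sets (lines, ordered by place in the complex) on the 8 arrays (columns, 2 for each group), each shown relative to the mean of its own line. The strongest colours are those of Psma3 on the 2 domesticus arrays, at 4709.9 and 5684 intensity units, and of Psme1 and the dim probe sets on single arrays or groups.

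The alpha ring forms the gate of the core particle, and all 7 of its constitutive genes, Psma1 to Psma7, were measured with 1 probe set each. Psma3, which codes for 1 of the subunits of this ring, had intensities of 4709.9 and 5684 in domesticus, against 1017 and 1044 in castaneus, 736 and 816 in musculus, and 746 and 983 in ssp. The 2 domesticus arrays lay far above the other 6, which ranged over 736 to 1044 with no gap between musculus and ssp. Psma3 was 5.02-fold higher in domesticus than in castaneus, a log2 difference of 2.33 (95% interval 1.70 to 2.96, limma adjusted p = 0.0314). It was 6.68-fold higher in domesticus than in musculus, a log2 difference of 2.74 (95% interval 2.11 to 3.37, limma adjusted p = 0.0160). It was 6.04-fold higher in domesticus than in ssp, a log2 difference of 2.60 (95% interval 1.96 to 3.23, limma adjusted p = 0.0207). These 3 comparisons share the domesticus arrays. The call of domesticus over castaneus was lost with no brightness filter (limma adjusted p = 0.0582). A replicate block, which is a term for the replicate number in the fit, ended it too (limma adjusted p = 0.0501). The F test over the 4 groups gave a limma adjusted p of 0.0241, and refits without 1 of the 8 arrays gave 0.0501 to 0.127, so that each array on its own ended this call while the direction stayed. The calls of the 3 pairs were lost in the same way, except that of domesticus over musculus without either ssp array. The probe set's identifier ends in _f_at, the manufacturer's mark for probes that can also match related transcripts, so the signal may include those. A letter suffix (_f, _s, _i or _r) marks 11 of the 48 tested proteasome probe sets. Among those described below are the brighter ones of Psmb4 and Psmb5, the dimmer one of Psmc5, and those of Psmb7 and Psmc3.

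The 280 bases around the RefSeq start of Psma3 are shown because it is the proteasome gene with the widest difference. They lie at chr12:70974373-70974652 on the + strand of mouse assembly GRCm38.p6 and run from 250 bases before the start to 30 after it. Capitals mark the letters CCAAT on either strand, found 139 bases before the start and, on the reverse strand, from base 14 after it.
Psma3: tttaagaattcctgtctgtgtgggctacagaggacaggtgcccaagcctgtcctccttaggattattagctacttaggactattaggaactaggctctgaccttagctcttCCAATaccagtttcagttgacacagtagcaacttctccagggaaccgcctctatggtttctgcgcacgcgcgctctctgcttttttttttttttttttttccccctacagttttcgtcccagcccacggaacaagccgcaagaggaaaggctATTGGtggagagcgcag
CCAAT stood in 14 of the 36 proteasome windows, or 38.9%, and in 36.1% of all 32851 RefSeq windows of the same length. Among the genes near Psma3 in the RefSeq gene order, Tmx1 and Timm9 had a tested probe set, and their F test limma adjusted p-values were 0.971 and 0.676. These neighbours were looked up after the values of Psma3 were seen.

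The other 6 alpha genes each differed by less than 2-fold between group means, and none passed a test. Psma6 was the alpha member with the brightest probe set, at 17172 and 14527 in castaneus, 13293 and 22459 in domesticus, 16087 and 19537 in musculus, and 19045 and 24067 in ssp (F test, limma adjusted p = 0.845). Both ssp arrays lay above both castaneus arrays, and the 2 domesticus arrays alone spanned nearly the whole range. Psma1 had the dimmest probe set, at 420 and 361 in castaneus, 365 and 362 in domesticus, 290.3 and 340.2 in musculus, and 226 and 338 in ssp (F test, limma adjusted p = 0.698). The castaneus and domesticus ranges overlapped, and so did those of musculus and ssp. Psma7 had 599 and 722 in castaneus, 599.5 and 634 in domesticus, 569 and 559 in musculus, and 457 and 336 in ssp (F test, limma adjusted p = 0.416). Both ssp arrays lay below the other 6. The group means of Psma2, Psma4 and Psma5 lay 1.13-fold, 1.25-fold and 1.46-fold apart.

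The beta ring carries the cutting sites, and 11 tested probe sets stood for its 7 constitutive genes. None of the 11 passed a test after adjustment in limma, and 5 had an unadjusted F test p under 0.05, against 1 of 7 in the alpha ring. Over all tested probe sets 15.9% had such a p, and 10 of the 48 proteasome probe sets, or 20.8%. The median distance between the highest and lowest group mean was 0.88 on the log2 scale in the beta ring and 0.50 in the alpha ring. The castaneus mean was above the domesticus mean in 10 of the 11 beta probe sets, by a median of 0.66 on the log2 scale, and above the musculus mean in all 11, by a median of 0.35, while 51.2% and 49.8% of all tested probe sets lay above 0 in these pairs. It was above the ssp mean in 8 of the 11, by a median of 0.54, beside 47.5% of all. After quantile normalization these counts were 9, 10 and 8 of 11. As deposited, castaneus lay above domesticus, musculus and ssp in 5, 5 and 6 of the 7 alpha probe sets. The same counts were 5, 8 and 7 of 9 for the ATPases of the regulatory particle. For its non-ATPases they were 9, 10 and 11 of 16. The pairs share the castaneus arrays. Several of these probe sets report on the same gene, so they are not independent.

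Psmb5 codes for the subunit with chymotrypsin-like activity, the site that the proteasome inhibitor bortezomib mainly blocks. Its brighter probe set had 1601 and 1478 in castaneus, 1243 and 1713 in musculus, 931 and 1002 in domesticus, and 762 and 919.7 in ssp. Castaneus and musculus overlapped at the upper end, and both ssp arrays lay below the other 6. Castaneus was 1.84-fold above ssp, a log2 difference of 0.88 ± 0.27 (SE), with a limma adjusted p of 0.300. The other Psmb5 probe set had 262 and 303 in castaneus, 175 and 181 in domesticus, 106 and 236 in ssp, and 167 and 101 in musculus. Both castaneus arrays were above the other 6, by 2.17-fold against musculus (log2 difference 1.12 ± 0.44, SE, limma adjusted p = 0.355). Castaneus had the highest mean in both probe sets, and the order of the other groups was not the same.

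The start of Psmb5 is shown as a catalytic gene whose window holds the letters TGACNNNGC, written in capitals. These resemble the element bound by NRF1 and NRF2, of which NRF1 is known to raise proteasome genes when proteasomes are blocked. The window lies at chr14:54617966-54618245 on the - strand of GRCm38.p6, and the match begins 47 bases before the RefSeq start.
Psmb5: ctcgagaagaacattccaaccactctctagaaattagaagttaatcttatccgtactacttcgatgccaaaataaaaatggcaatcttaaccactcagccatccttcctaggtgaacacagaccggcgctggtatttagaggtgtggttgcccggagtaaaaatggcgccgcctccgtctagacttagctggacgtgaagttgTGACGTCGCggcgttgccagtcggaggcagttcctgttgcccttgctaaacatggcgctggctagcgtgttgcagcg
These letters stood in 6 of the 36 proteasome windows, or 16.7%, and in 11.5% of all windows. The 6 genes were Psmb5, Psmb6, Psmc6, Psmd9, Psmd12 and Psme4.

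Psmb7 codes for the subunit with trypsin-like activity. Its probe set had 2589 and 3250.0 in castaneus, 1909.5 and 2406 in domesticus, 1952 and 2236 in ssp, and 1047 and 1518 in musculus. Both castaneus arrays were the highest and both musculus arrays the lowest of the 8, while domesticus and ssp overlapped. Castaneus was 2.30-fold above musculus, a log2 difference of 1.20 ± 0.30 (SE), with a limma adjusted p of 0.165. Psmb6, the subunit with caspase-like activity, had 2718 and 3550.5 in castaneus, 2647 and 2889 in domesticus, 2849 and 1595 in ssp, and 2179 and 2048 in musculus. Its ssp arrays alone spanned more than the group means did, and the F test's limma adjusted p was 0.668.

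Psmb1 codes for a beta subunit with no cutting site and was read by 3 probe sets that did not give 1 picture. The probe set of middle brightness had 1602 and 1645 in castaneus, 1087 and 922 in ssp, 811 and 854 in domesticus, and 690.3 and 808 in musculus. Castaneus was above the other 6 arrays, 2.17-fold over musculus (log2 difference 1.12 ± 0.24, SE, limma adjusted p = 0.111) and 1.95-fold over domesticus (limma adjusted p = 0.186). The brightest probe set had 2921 and 2050.4 in castaneus, 1961 and 1870.4 in musculus, 1693 and 1286 in domesticus, and 1417 and 1304 in ssp. Here too castaneus lay above the other 6, with an F test limma adjusted p of 0.382. The dimmest probe set had 167 and 104 in ssp, 79.9 and 120 in castaneus, 38.1 and 83.0 in musculus, and 28.2 and 25.5 in domesticus. In it domesticus was below all others and ssp had the highest mean, 4.91-fold over domesticus (log2 difference 2.29 ± 0.46, SE, limma adjusted p = 0.114).

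Psmb4, another beta subunit with no cutting site, also gave different pictures by probe set. The bright probe set had 2735 and 3414 in ssp, 2772 and 3065 in castaneus, 2842 and 2988 in musculus, and 2595 and 3139.9 in domesticus. Its group means lay within 1.07-fold of each other (log2 interval of ssp minus domesticus -0.51 to 0.71). The dim probe set had 148 and 272 in castaneus, 304 and 125 in musculus, 97.2 and 167 in domesticus, and 61.8 and 57.9 in ssp. Both ssp arrays were the lowest, and castaneus was 3.35-fold above ssp, with a limma adjusted p of 0.300. The remaining probe set of the gene did not exceed 62.7 on any array and was not tested. The group means of Psmb2 and Psmb3 lay 1.20-fold and 1.16-fold apart.

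**Figure D2:**
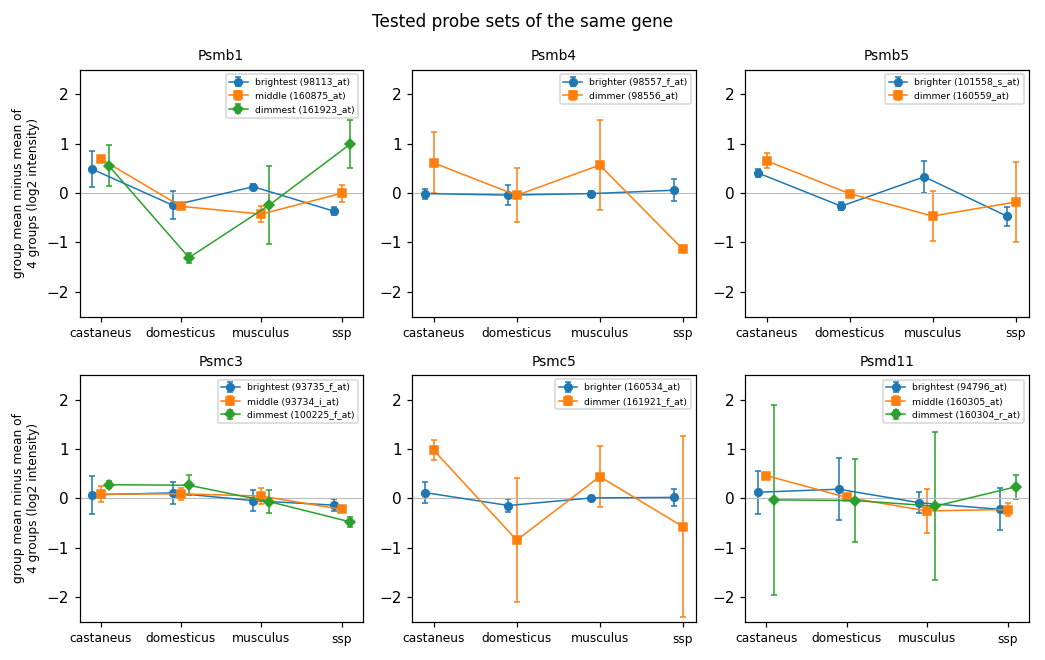
Group means of log2 intensity, each minus the mean of the 4 groups, for the 6 subunit genes read by several tested probe sets, 1 colour for each probe set, with bars of ± 1 SD over the 2 arrays of a group. For Psmb1 the castaneus mean is the highest in the brightest and middle probe sets and the ssp mean in the dimmest, and for Psmb4 ssp stands below the other groups in the dimmer probe set while the brighter has 1.07-fold between its group means.

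The ATPase ring of the regulatory particle, coded by Psmc1 to Psmc6, unfolds the substrate and threads it into the barrel. None of its 9 tested probe sets passed a test after adjustment in limma, and 1 had an unadjusted F test p under 0.05, that of Psmc2. Psmc2, singled out after its values were seen, had 6063 and 6543 in ssp, 6308 and 5623 in castaneus, 3797.5 and 3830.1 in domesticus, and 3397 and 3965 in musculus. The arrays fell into a higher set of ssp and castaneus, which overlapped, and a lower set of domesticus and musculus, which also overlapped. Ssp was 1.72-fold above musculus, a log2 difference of 0.78 ± 0.23 (SE), with a limma adjusted p of 0.225.

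The start of Psmc2 is shown because its window holds CCGGAAG, a letter run of the kind bound by ETS factors, here in capitals on the reverse strand and beginning 84 bases before the RefSeq start. It lies at chr5:21785025-21785304 on the + strand of GRCm38.p6.
Psmc2: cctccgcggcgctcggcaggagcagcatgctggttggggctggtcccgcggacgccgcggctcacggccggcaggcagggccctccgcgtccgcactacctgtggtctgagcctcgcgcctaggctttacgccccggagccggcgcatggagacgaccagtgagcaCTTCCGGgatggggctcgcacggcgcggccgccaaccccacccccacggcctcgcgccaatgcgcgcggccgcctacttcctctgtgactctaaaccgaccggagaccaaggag
CCGGAAG on either strand stood in 15 of the 36 proteasome windows, or 41.7%, against 8.45% of all windows and 11.1% of those of protein-coding genes. It was found in 14 genes, of which Psma6 is the only one of the core particle, and the rest are regulatory-particle, activator and interacting-protein genes such as Psmc1, Psmd4, Psmd11 and Psme4. GC content differed too, with a median of 58.9% in the proteasome windows, 52.5% in all windows and 56.1% in protein-coding ones, and its part in this share was not tested. Windows were given for 33 of the 39 genes, and in them no match of 1 motif overlapped a match of another.

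The dimmest ATPase probe set was 1 of the 2 for Psmc5, with 126 and 154 in castaneus, 71.1 and 131 in musculus, 118 and 19.4 in ssp, and 72.8 and 21.4 in domesticus. Its replicates differed by up to several fold, and the F test's limma adjusted p was 0.611. The other Psmc5 probe set had 999.6 and 1228 in castaneus, 1129.6 and 951 in ssp, 1039.6 and 1019 in musculus, and 869 and 985 in domesticus. Domesticus overlapped ssp and lay below castaneus and musculus, and the group means were 1.20-fold apart. Psmc3 had the brightest ATPase probe set, at 6625 and 8303 in domesticus, 5991 and 8703 in castaneus, 6003 and 7372 in musculus, and 5869 and 6648 in ssp, and all 4 groups overlapped. In the other tested probe sets of Psmc3 both ssp arrays lay below all other arrays. Their group means were 1.68-fold and 1.24-fold apart (F test, limma adjusted p = 0.362 and 0.806). Psmc1 had 893 and 956 in castaneus, 678 and 650.1 in domesticus, 778 and 658 in musculus, and 444 and 578 in ssp. Castaneus was above and ssp below all other arrays for this gene, 1.82-fold apart (limma adjusted p = 0.283). The group means of Psmc4 and Psmc6 lay 1.71-fold and 1.65-fold apart.

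The non-ATPase genes of the regulatory particle, Psmd1 to Psmd14, code for its scaffold, its ubiquitin receptors and its deubiquitinase, and for chaperones that help assemble it. None of their 16 tested probe sets passed a test after adjustment in limma, and 1 had an unadjusted F test p under 0.05. That was Psmd7, which pairs with the deubiquitinase Psmd14, with 2285 and 2523 in domesticus, 2384 and 1679.8 in castaneus, 1630.5 and 2397 in ssp, and 616 and 929.5 in musculus. Both musculus arrays were below the other 6, which overlapped among themselves. Domesticus was 3.17-fold above musculus, a log2 difference of 1.67 ± 0.35 (SE), with a limma adjusted p of 0.128. Castaneus was 2.65-fold and ssp 2.61-fold above musculus, with limma adjusted p-values of 0.163 and 0.160.

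Psmd14, which cuts ubiquitin chains off the substrate, had 946 and 638 in castaneus, 592 and 556 in ssp, 551 and 597 in musculus, and 442 and 561 in domesticus. Castaneus lay above the other 6, and the F test's limma adjusted p was 0.593. Psmd4, a ubiquitin receptor and the brightest of these probe sets, had 6864 and 6386 in domesticus, 6417 and 6746 in musculus, 5945 and 6309.5 in castaneus, and 4927 and 4079.9 in ssp. Both ssp arrays were below all others, and the domesticus mean was 1.48-fold above that of ssp (limma adjusted p = 0.410). Psmd2, a scaffold subunit, was the dimmest, with 47.7 and 111 in castaneus, 182 and 24.4 in domesticus, 71.7 and 47.0 in ssp, and 48.4 and 23.3 in musculus. Its replicates differed so widely that no order of groups can be read (F test, limma adjusted p = 0.862). For the other genes of this class the group means lay between 1.14-fold and 1.88-fold apart, with Psmd9 at the lower and Psmd1 at the upper end.

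The activators open the barrel without ubiquitin. Psme1 codes for a subunit of PA28, the activator that interferon-gamma is known to raise together with the immunoproteasome. Its tested probe set had 360.1 and 399 in musculus, 317 and 381 in domesticus, and 304 and 225 in castaneus, against 71.1 and 107 in ssp. Both ssp arrays were below the other 6, musculus and domesticus overlapped, and castaneus lay between. Psme1 was 4.35-fold higher in musculus than in ssp, a log2 difference of 2.12 (95% interval 1.37 to 2.87), and was called (limma adjusted p = 0.0436). It was 3.99-fold higher in domesticus than in ssp (limma adjusted p = 0.0618) and 1.59 higher on the log2 scale in castaneus than in ssp (limma adjusted p = 0.134), neither of which passed. The F test over the 4 groups missed the threshold as well (limma adjusted p = 0.0595). Leaving out any 1 array gave a limma adjusted p of 0.0835 to 0.197 for musculus minus ssp, so that the call rests on all 8 arrays. It was also lost with no brightness filter (limma adjusted p = 0.0755) and with median centring (limma adjusted p = 0.0532). A replicate block ended it too (limma adjusted p = 0.0785). The other Psme1 probe set lay between 1.6 and 63.4 and was too dim to be tested.

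The start of Psme1 is shown because its window holds GAAA and, after any 2 bases, GAAA again, the letters of an interferon-response type element, in capitals on the reverse strand from base 10 after the RefSeq start. It lies at chr14:55578244-55578523 on the + strand of GRCm38.p6.
Psme1: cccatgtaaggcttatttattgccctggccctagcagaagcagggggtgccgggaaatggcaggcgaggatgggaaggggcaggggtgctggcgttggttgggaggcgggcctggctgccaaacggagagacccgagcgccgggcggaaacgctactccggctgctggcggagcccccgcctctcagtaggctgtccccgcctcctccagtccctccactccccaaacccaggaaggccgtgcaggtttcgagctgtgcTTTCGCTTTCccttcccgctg
These letters stood in 4 of the 36 proteasome windows, or 11.1%, those of Psmb3, Psmd4, Psmd9 and Psme1, and in 3.28% of all windows. The remaining motif searched, TATAAA on either strand, stood in 3 windows, or 8.33%, against 13.1% of all windows.

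The genes that interferon raises together with Psme1 were measured as well. Psmb10 had 347 and 249 in musculus, 318 and 238 in domesticus, and 257 and 249.9 in castaneus, against 150.3 and 169.7 in ssp. Its ssp arrays were also below the other 6 (F test, limma adjusted p = 0.362). Psmb8 had 113 and 194 in musculus, 175 and 159 in domesticus, and 256 and 159 in castaneus, against 26.8 and 147 in ssp, where ssp overlapped musculus (F test, limma adjusted p = 0.580). Psmb9 had 171 and 20.1 in musculus, 24.2 and 34.9 in domesticus, and 43.9 and 34.7 in castaneus, against 129 and 37.0 in ssp, which lay above domesticus and overlapped the other groups (F test, limma adjusted p = 0.848). None of the 3 immunoproteasome genes was called by limma, and none had an unadjusted F test p under 0.05. The partner of Psme1 in PA28, Psme2, shared its probe sets in the annotation with Psme2b, and the brighter of these had 489 and 599 in musculus, 398 and 352 in domesticus, and 416 and 368 in castaneus, against 304 and 441 in ssp (F test, limma adjusted p = 0.601). Here the ssp arrays lay below both musculus arrays and overlapped domesticus and castaneus. The dimmer probe set had 105 and 134 in ssp, above both arrays of musculus (88.2 and 48) and of castaneus (32.1 and 42.7). In domesticus it had 198 and 54.5, which overlapped ssp (F test, limma adjusted p = 0.442).

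B2m, the light chain of class I antigen-presenting molecules, had 722 and 765 in musculus, 436 and 397 in domesticus, and 604 and 635 in castaneus, against 296 and 387 in ssp. Its ssp arrays were below the other 6, and it was not called (F test, limma adjusted p = 0.170). Tap1 also had its lowest mean in ssp, but other interferon-induced genes went the other way. The tested Irf7 probe set had its highest mean in ssp, at 154 and 75.2, and overlapped castaneus. Ifit3 and Isg15, too dim to be tested, had their highest means in ssp as well. Both ssp arrays of Ifit3, at 113 and 142, lay above the other 6.

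Several marker lists had their lowest or nearly lowest sums in ssp too. A sum takes in every probe set of a list, those too dim to test included. The immunoproteasome genes summed to 463 to 631 in musculus, 432 to 517 in domesticus and 444 to 557 in castaneus, against 307 to 353 in ssp. The 8 measured interferon-induced genes, which include Psmb8 and Psmb9, summed to 1286 to 1583 in musculus, 919.6 to 1083 in domesticus and 1388 to 1461 in castaneus, against 1028 to 1031 in ssp. The 7 measured immune-cell genes summed to 3246 to 3690.4 in musculus, 3206 to 3347 in domesticus and 2597 to 3117 in castaneus, against 2165 to 2638 in ssp. No marker was at 0, and the defining leukocyte markers Ptprc, Cd3e and Cd79a had no probe set bright enough to test. The part of these lists in the Psme1 difference was not tested.

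**Figure D3:**
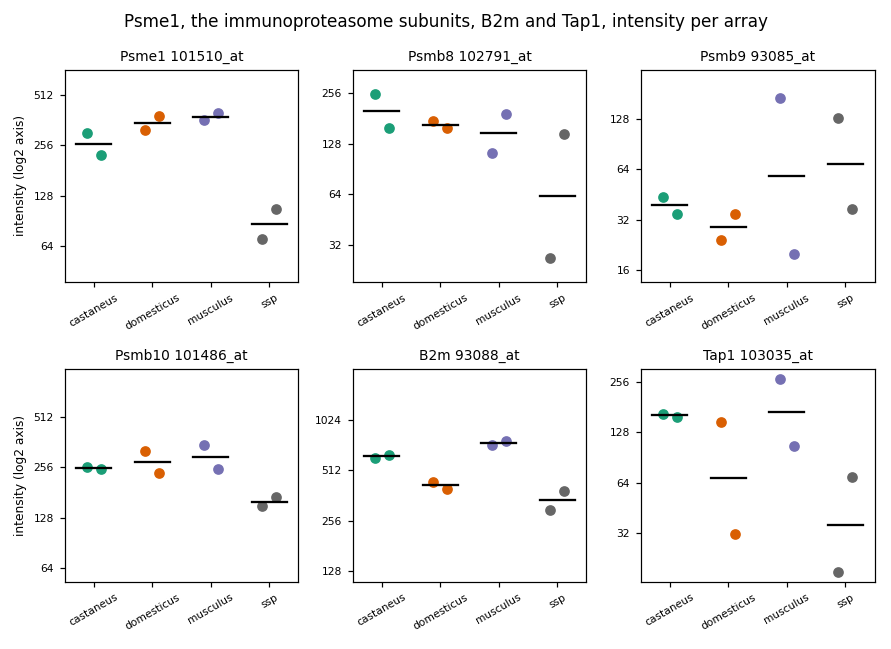
Intensity on a log2 axis of Psme1, the 3 immunoproteasome genes and the interferon-induced genes B2m and Tap1, 1 point for each of the 8 arrays, with short bars at the geometric mean of each group. The 2 ssp arrays are below the other 6 for Psme1 (71.1 and 107), Psmb10 (150.3 and 169.7) and B2m (296 and 387), and overlap at least 1 other group for Psmb8, Psmb9 and Tap1.

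The other activators passed no test. Psme4, the activator known for histone breakdown in spermatids, had 5451 and 6420.4 in ssp, 4824 and 6013 in castaneus, 4995.5 and 6005.5 in domesticus, and 4351 and 5017 in musculus. Both ssp arrays lay above both musculus arrays, and castaneus and domesticus overlapped both of these groups. The widest difference, ssp minus musculus, was 0.34 on the log2 scale (95% interval -0.30 to 0.98, limma adjusted p = 0.676). Psme3, which forms a nuclear activator, had 639 and 620.3 in castaneus, 619 and 569 in domesticus, 623 and 546 in ssp, and 469 and 617 in musculus. Both castaneus arrays lay above those of domesticus and musculus and overlapped ssp. The widest log2 difference, castaneus minus musculus, was 0.23 (95% interval -0.39 to 0.84, limma adjusted p = 0.789).

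Psmc3ip, taken by its prefix and not a subunit, is known as HOP2, a protein of strand exchange in meiotic recombination. It had 1189 and 1672 in domesticus, 949 and 1327 in castaneus, 552 and 605.5 in musculus, and 363.5 and 534 in ssp. Domesticus and castaneus overlapped, musculus lay below both, and both ssp arrays were below the other 6. Domesticus was 3.20-fold above ssp, a log2 difference of 1.68 ± 0.33 (SE), which did not pass (limma adjusted p = 0.112). Psme3ip1, which binds the activator Psme3, had its highest mean in domesticus, whose 2 arrays overlapped castaneus and lay above musculus and ssp, with group means 1.24-fold apart and no call.

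**Figure D4:**
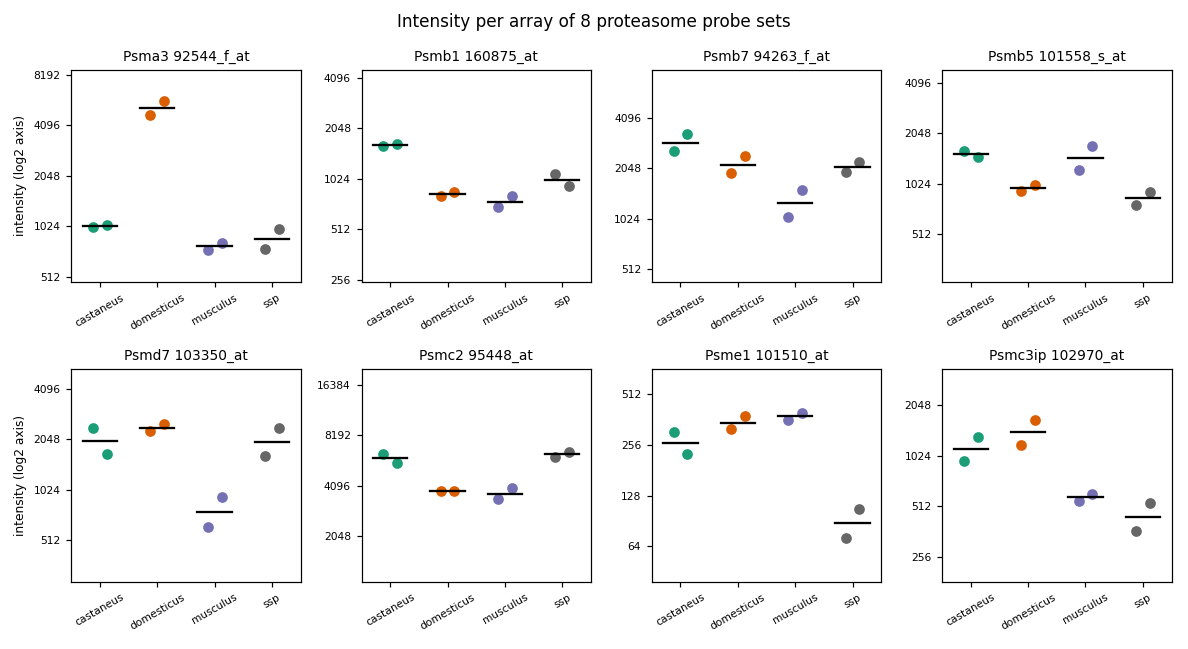
Intensity on a log2 axis of 8 proteasome probe sets, 1 point for each array and short bars at the geometric mean of each group, with every panel spanning the same log2 range. The domesticus arrays stand above the rest for Psma3, the ssp arrays below the rest for Psme1, Psmb5 and Psmc3ip, the musculus arrays below the rest for Psmd7, and the castaneus arrays above the rest for Psmb1 and Psmb7.

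Counted over pairs of groups, few proteasome probe sets were called, and the 6 pairs share arrays. Castaneus minus domesticus gave 1 call, Psma3, lower in castaneus, beside 0.676% of all tested probe sets. Domesticus minus musculus gave 1 call, Psma3, beside 0.744%, and domesticus minus ssp gave 1, Psma3, beside 0.687%. Musculus minus ssp gave 1 call, Psme1, beside 0.98%. Castaneus minus musculus gave 0 calls in limma beside 0.947%, with 7 probe sets at an unadjusted p under 0.05, beside 13.5% of all. All 7 were higher in castaneus, as 6.65% of all tested probe sets were with such a p. Castaneus minus ssp gave 0 calls in limma beside 0.349%, with 9 probe sets at an unadjusted p under 0.05, beside 10.8% of all. All 9 were higher in castaneus, as 5.19% of all were with such a p. In the remaining pairs the number at an unadjusted p under 0.05 was 7 for castaneus minus domesticus (11% of all), 4 for domesticus minus musculus (12.2%), 7 for domesticus minus ssp (12.4%) and 7 for musculus minus ssp (13.3%).

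Castaneus had the highest mean in 24 of the 48 proteasome probe sets, or 50%, while it had the highest mean in 24% of all tested probe sets. Ssp had the lowest mean in 20 of 48, or 41.7%, against 23.1% of all. Domesticus was highest in 11, ssp in 8 and musculus in 5. Musculus was lowest in 14, domesticus in 8 and castaneus in 6. These counts include differences within the spread between replicates and carry no test.

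In 23 of the 48, or 47.9%, both arrays of some group lay above or below the other 6, against 39.8% of all tested probe sets. Both castaneus arrays were above the other 6 in 7 probe sets, or 14.6%, against 5.74% of all. Both ssp arrays were below the other 6 in 9, or 18.8%, against 5.17% of all. Both musculus arrays were below in 4, or 8.33%, against 6.68% of all. The other kinds of separation were rarer: castaneus below the rest in 2 (5.44% of all), domesticus above in 1 (6.13%) and below in 2 (5.52%), musculus above in 1 (6.37%) and ssp above in 0 (6.42%). With an unadjusted F test p under 0.05 as well, 9 proteasome probe sets separated a group, or 18.8%, against 14.7% of all. Probe sets of the same gene are counted separately here, so the counts do not stand for as many genes.

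The median proteasome difference was small in every pair. Castaneus minus ssp had a median log2 difference of 0.27, with 36 of 48 above 0, beside a median of -0.03 over all tested probe sets. Castaneus minus musculus had a median of 0.21, with 37 of 48 above 0, beside -0.003 over all. Domesticus minus ssp had 0.16, castaneus minus domesticus 0.08, musculus minus ssp 0.07 and domesticus minus musculus 0.05. When each array was centred on its median, the castaneus minus ssp median became 0.40 while that of all tested probe sets moved to 0.11. Median centring also took domesticus minus ssp to 0.26, beside 0.05 over all, castaneus minus domesticus to 0.12, beside 0.06, and musculus minus ssp to 0.17, beside 0.06. Quantile normalization gave 0.04 for musculus minus ssp. In musculus minus ssp, 26 of 48 were above 0 as deposited and 32 of 48 after median centring. The sign of all 6 proteasome medians was the same under the deposited scaling, median centring and quantile normalization.

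**Figure D5:**
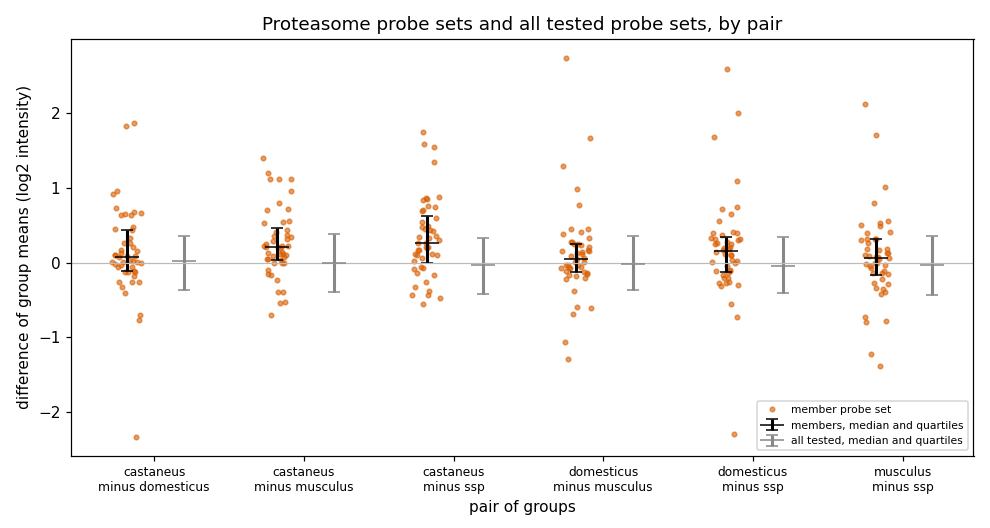
Log2 differences of the 48 tested proteasome probe sets for the 6 pairs of groups, first minus second, 1 point for each probe set, with medians and quartiles of these (black) and of all 8874 tested probe sets (grey). The points of castaneus minus ssp and castaneus minus musculus lie mostly above 0, with medians of 0.27 and 0.21, and the points farthest from 0 are those of Psma3 in the 3 pairs with domesticus.

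The summed intensities of cell-type markers were set beside these differences. The spermatid markers summed to 269370 to 327900 in castaneus, 238380 to 250170 in domesticus, 217570 to 274400 in musculus and 301090 to 350870 in ssp. The Leydig cell markers summed to 4478 to 5634 in castaneus, 4723 to 4783 in domesticus, 13489 to 14621 in musculus and 3397 to 3456 in ssp. The Sertoli cell markers summed to 10578 to 11246 in castaneus, 10638 to 10748 in domesticus, 11191 to 11216 in musculus and 9702 to 9848 in ssp. The spermatocyte markers summed to 61836 to 70996 in castaneus, 54375 to 54728 in domesticus, 55406 to 57561 in musculus and 62290 to 70353 in ssp, and the spermatogonia markers to between 1837 and 4642 with all groups overlapping. The striated muscle markers, with 2 of 5 tested probe sets called, summed to 836 to 1016 in castaneus, 418 to 625 in domesticus, 1177 to 1301 in musculus and 953 to 1017 in ssp. Among them Tnnc1 had 340.2 and 377 in castaneus and 437 and 579 in ssp, and between 7 and 20.7 in domesticus and musculus. The other called probe set, of Myh7, was highest in musculus, at 710 and 878, and had 176 and 158 in domesticus. It had 39.6 and 51.1 in castaneus and 73 and 60.6 in ssp. The part of these markers in the proteasome differences was not tested.

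The genes that assemble the proteasome and bring substrates to it were counted by lists. Among the assembly chaperones Psmg1 to Psmg4 and Pomp, 0 of 6 tested probe sets were called by limma and 0 had an unadjusted F test p under 0.05. Among the proteasome-associated genes, which include shuttle proteins, deubiquitinases and the factors Nfe2l1 and Nfe2l2, 0 of 16 were called and 4 had an unadjusted limma F test p under 0.05. Among the genes of ubiquitin and its activating and conjugating enzymes, 0 of 18 were called and 3 had such a p. None of these probe sets was called in any pair.

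Ecpas, whose yeast counterpart is known to hold the core and regulatory particles together, had 1129 and 1014 in domesticus, 1016 and 764 in musculus, 464 and 366 in castaneus, and 338 and 429 in ssp. Domesticus and musculus overlapped and lay above castaneus and ssp, which also overlapped (F test, limma adjusted p = 0.0929). Ube2b, a ubiquitin-conjugating enzyme needed for spermatogenesis in mice, had 1484 and 1629 in ssp, 1042 and 1213 in domesticus, 749.5 and 560.4 in castaneus, and 389.8 and 526 in musculus. No 2 of its groups overlapped, and the F test's limma adjusted p was 0.0832. Each list's 3 widest distances between group means also took in Zfand2a at 2.43 and Nfe2l2 at 1.79 on the log2 scale among the associated genes, and Ube2c at 1.91 and Ube2d3 at 1.40 among the ubiquitin genes. Among the assembly chaperones they were those of Psmg1, at 1.06, and of the 2 Psmg3 probe sets, at 0.82 and 0.65.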

How the data were processed

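Testis RNA of 4 groups, 2 technical replicate arrays each, was measured on Affymetrix arrays, per the labels. The deposited values are intensities on a linear scale, with array medians of 151 to 183 and a common trimmed mean on all 8 arrays. How the authors summarised the probes and scaled the arrays was not given in the sources used here. Only 8 arrays bear on each value, which limits its precision.

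The floor was 18.7, the 10th percentile of all intensities, to which lower ones were raised before log2, and 7.39% to 13.1% of each array lay there. Tested were the 8874 of 12422 probe sets at or above the 40th percentile of their array in 2 or more of the 8. The fit, limma 3.58.1 in R 4.3.3, had 1 mean per group over all 8 arrays, 4 residual and 2.34 prior degrees of freedom, and was tested on simulated data first. Intervals cover 95% and come from this fit. F tests and the 6 pairs were each adjusted over all tested probe sets.

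Of the probe sets, 10833 had 1 gene symbol, 396 several and 1193 none, from the platform annotation. All 50 proteasome probe sets matched RefSeq (assembly GRCm38.p6) by gene number. Promoter windows and gene order come from RefSeq tables of that assembly. The motifs were searched on both strands and chosen with these results known.

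The proteasome genes and the other lists were chosen with earlier results of these data known. Values are given per array for probe sets that passed a test, the 10 with the widest distance between group means, those with 1 group apart from the other 6 arrays and an unadjusted F test p under 0.05, the catalytic, activator and deubiquitinase genes, the brightest and dimmest of each class, and further probe sets of such genes. Of the associated genes, the 3 probe sets of each list with the widest distance are named where none passed. Psmc1, Psmc2, Psma7 and B2m were named after their values were seen. The alternatives tried were other floors and filters, median centring, quantile normalization, a trended and robust variance, a replicate block, the 4 arrays of a pair alone, and leaving out each array.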

Additional observations from a re-analysis of the deposited data

How the results depend on the processing

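Each comparison was refitted under the alternatives. Among the probe sets that were called, widest or set apart at an unadjusted F test p under 0.05, no highest-minus-lowest difference reversed. No called pair difference reversed either. Quantile normalization took the count of non-ATPase probe sets with castaneus above domesticus from 9 to 7 of 16. For the F test over the 4 groups, with 1 proteasome call as reported, raising the floor to the 20th percentile gave 2, a filter at the 60th percentile gave 2 (Psma3 and Psme1 in both), and a trended and robust variance gave 5, with the middle Psmb1 probe set, Psmc3ip and Psmd7 at limma adjusted p-values of 0.0416, 0.018 and 0.0198. The trended and robust variance gave 3 calls for castaneus minus musculus, 2 for domesticus minus musculus, 3 for domesticus minus ssp and 2 for musculus minus ssp. The filter at the 60th percentile gave 1 for castaneus minus musculus and 3 for domesticus minus ssp, where the floor at the 20th percentile gave 2. With no filter, castaneus minus domesticus and musculus minus ssp gave 0 calls in limma (7 and 8 at an unadjusted p under 0.05). Median centring gave 0 for musculus minus ssp (4 at an unadjusted p under 0.05), with Psme1 at a limma adjusted p of 0.0532. With only the 4 arrays of a pair, all 6 pairs gave 0 calls in limma for the proteasome and for all probe sets, with 3 to 5 proteasome probe sets at an unadjusted p under 0.05.

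Leaving out 1 array gave 0 to 0 proteasome calls in limma's F test (5 to 9 at an unadjusted p under 0.05) and 7 to 43 calls over all probe sets, against 156 in the full fit. The pairs also gave 0 to 0, except domesticus minus musculus at 0 to 1, where Psma3 passed without either ssp array. A group left with 1 array was assumed to vary like the others.

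With a replicate block, the F test gave 1 proteasome call and castaneus minus domesticus and musculus minus ssp gave 0 (7 each at an unadjusted limma p under 0.05), with Psma3 at a limma adjusted p of 0.0501 and Psme1 at 0.0785. It changed no other count of proteasome calls. The main fit did not take the replicate numbers as pairs. The deviations of same-numbered arrays correlated at 0.0263 to 0.171 over the 6 pairs of groups, with 2 of the 6 under 0.1. All 6 were above 0, and whether the numbers mark a step shared between groups was not tested. Dim probe sets limit the precision, as the replicates of Psmd2 and of the dimmer Psmc5 probe set show.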

Other observations

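In 10 of the 48 tested proteasome probe sets, or 20.8%, replicate 2 was brighter than replicate 1 in all 4 groups, against 11.3% of all tested probe sets. The opposite held in 3, or 6.25%, against 12.7% of all. The labels do not say what the replicate numbers stand for.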
